A study of Homo sapiens with 8 samples.

Results

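Metallothioneins are small, cysteine-rich proteins that bind zinc and copper and also toxic metals such as cadmium, and they are known to bind platinum as well. Their genes lie side by side on human chromosome 16, with MT2A and several MT1 genes expressed in many tissues and MT3 known mainly from brain. Zinc and other metals raise their transcription through the zinc-sensing factor MTF1, which binds short metal response elements in their promoters. The results below concern open chromatin at 9 of these genes, MT1A, MT1E, MT1F, MT1G, MT1H, MT1M, MT1X, MT2A and MT3. A peak was taken as a metallothionein peak where it overlapped the RefSeq span of 1 of these genes extended by 1 kb on both sides, which gave 12 of the 159451 consensus peaks, at 7 of the 9 genes. MT1G and MT1H had no peak in the matrix within 1 kb and therefore have no values here.

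The assay was ATAC-seq, which reads out open chromatin through the cuts that the transposase Tn5 makes in accessible DNA, and the cells were A2780, a human ovarian cancer line, and its drug-resistant derivatives. The groups were cisplatin-resistant cells, paclitaxel-resistant cells, dual-resistant cells (resistant to both drugs) and control cells, with 2 libraries each. All 4 groups carry the genotype label WT. The treatment labels name cisplatin, paclitaxel or both drugs for the resistant lines and none for control, but the sources used here do not say whether the cells were in drug at collection. Each kind of resistance is represented by 1 line, so a difference between lines cannot be told apart from other differences between those lines. The labels do not say whether libraries of the same group are separate cultures, and the p-values measure only the spread between libraries, which may be technical.

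Levels are in CPM (read counts scaled to a common total over all peaks of a library), and all peaks are 1001 bases long, so levels can be compared between peaks. Reads in peaks ranged over 8552256 to 8885297, 8236447 to 8898337 and 8087535 to 9304798 per library in the cisplatin-resistant, paclitaxel-resistant and dual-resistant lines, and over 7693492 to 7769112 in control cells. One read was worth 0.107 to 0.130 CPM, and the metallothionein peaks held 6 to 264 reads per library. Differences are on the log2(CPM + 0.5) scale, from limma fitted to all tested peaks, and a peak is called where the Benjamini-Hochberg adjusted p over all 158698 tested peaks was under 0.05. The limma p-values rest mostly on a spread estimated over all tested peaks (98.5 prior against 4 residual degrees of freedom). The fit was repeated under 21 alternative settings (other pseudocounts, filters and scalings, a replicate block, regional or chromosome medians subtracted, each library left out, and edgeR and DESeq2 on the recovered reads), and a value in brackets after a setting is the log2 difference under it. The MT1 genes are close copies of each other, and the sources used here do not say how reads that map to several places were treated, so the division of reads among them is uncertain. The annotation used gives gene spans only, so exons and introns are not told apart. In bulk ATAC-seq a change in the share of cells with an open site and a change in how open it is in each cell cannot be told apart. Among the tissue markers, 9 of 10 ovarian epithelial genes had a peak at a gene end, which summed to 45.0 to 46.0 CPM in cisplatin-resistant, 32.8 to 37.8 CPM in paclitaxel-resistant, 44.1 to 45.1 CPM in dual-resistant and 42.1 to 45.4 CPM in control cells. MUC16 had none, and PAX8, a defining marker of ovarian epithelial cancers, had 0.486 to 4.28 CPM. EPCAM had 8.13 to 14.8 CPM, MSLN 8.49 to 13.2 CPM and WT1 2.14 to 6.11 CPM. KRT8 and KRT18, which share a peak, had 3.16 to 5.81 CPM. KRT7 had 0.728 to 6.08 CPM, CDH1 0.675 to 4.05 CPM and FOLR1 0.900 to 3.01 CPM. The 6 of 7 fibroblast markers with such a peak summed to 67.9 to 69.9 CPM in cisplatin-resistant, 66.7 to 68.6 CPM in paclitaxel-resistant, 46.4 to 47.4 CPM in dual-resistant and 35.1 to 35.6 CPM in control cells. Of these 6 gene ends, 2 were higher and 1 lower in cisplatin-resistant, 2 higher and 0 lower in paclitaxel-resistant and 1 higher and 0 lower in dual-resistant cells than in control cells, with median log2 differences of 0.12, -0.15 and 0.23. The shares of all protein-coding gene ends higher and lower were 11.1% and 28.6%, 12.7% and 9.68%, and 4.86% and 14.8% in that order. They moved with the scaling, as given below. With the strongest peak over the gene span used for the 7 markers, 1 was higher and 5 were lower in cisplatin-resistant cells (median -0.70). Span peaks gave 2 higher and 0 lower for the paclitaxel-resistant line, and 1 and 0 for the dual-resistant line. For the 10 ovarian epithelial markers the span peaks gave 5 higher and 0 lower (median 0.52), 0 and 2, and 1 and 1, in that order of lines. For 5 of 6 haematopoietic markers the sums were 31.1 to 34.2 CPM, 38.0 to 40.6 CPM and 33.4 to 35.3 CPM in cisplatin-resistant, paclitaxel-resistant and dual-resistant cells, against 28.4 to 36.7 CPM in control cells. For 2 of 6 endothelial markers they were 13.0 to 14.9 CPM, 3.15 to 3.16 CPM and 3.65 to 4.95 CPM in the same order of lines, against 10.3 to 13.8 CPM in control cells. No marker with a peak was at 0 in any library, and the part of these lists in the metallothionein results was not tested.

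The promoters are shown because the metal response elements that MTF1 binds can be read in them and because those of MT2A and MT1X lie wholly inside a measured peak. RefSeq's promoter table (GRCh38.p14) held 3 of the 9 genes, all on the plus strand, and the 250 bases before each transcription start are printed 5′ to 3′. Capitals mark the letters TGCACNC or TGCGCNC, or their reverse complements, which are core letters of the metal response element.
MT2A, chr16:56608334-56608583: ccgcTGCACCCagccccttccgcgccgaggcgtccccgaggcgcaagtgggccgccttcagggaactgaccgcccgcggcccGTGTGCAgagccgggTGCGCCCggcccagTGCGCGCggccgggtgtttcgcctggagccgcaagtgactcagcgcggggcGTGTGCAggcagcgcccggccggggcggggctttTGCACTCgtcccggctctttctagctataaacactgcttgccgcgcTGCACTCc
MT1X, chr16:56682220-56682469: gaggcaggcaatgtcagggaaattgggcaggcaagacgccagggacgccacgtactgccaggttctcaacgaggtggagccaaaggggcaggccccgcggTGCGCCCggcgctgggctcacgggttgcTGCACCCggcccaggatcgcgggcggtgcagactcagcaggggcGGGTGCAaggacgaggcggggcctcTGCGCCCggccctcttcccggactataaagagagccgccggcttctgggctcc
MT1H, chr16:56669564-56669813: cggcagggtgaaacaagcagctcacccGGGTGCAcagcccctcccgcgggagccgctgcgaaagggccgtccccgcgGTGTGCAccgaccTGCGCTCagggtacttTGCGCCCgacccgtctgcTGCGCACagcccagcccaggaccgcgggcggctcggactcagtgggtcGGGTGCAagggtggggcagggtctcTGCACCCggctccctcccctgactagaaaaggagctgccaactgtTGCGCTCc
The MT2A promoter held 7 such matches, that of MT1X 4 and that of MT1H 8. Of 27305 promoters of the same length, 24.7% held at least 1 match, 0.366% at least 4, 0.0330% at least 7 and 0.0183% at least 8. MT2A also held 1 match to the AP-1 letters TGACTCA, starting at base -104 from the start and overlapping no metal response match, and 4.16% of all promoters held one. A match describes letters only and does not show that a factor was bound.

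At MT2A, the peak over the transcription start was called in none of the 6 comparisons between groups, while both peaks beside it were higher in the cisplatin-resistant line. The peak over the start (chr16:56608130-56609130, MT2A peak 2), which contains the printed promoter, had 22.8 and 20.9 CPM in cisplatin-resistant libraries, 21.9 and 24.8 CPM in paclitaxel-resistant libraries, 18.7 and 20.8 CPM in dual-resistant libraries and 19.2 and 21.2 CPM in control libraries. It was open at a similar level in all 8 libraries. Its difference from control was 0.11 (95% interval -0.18 to 0.41, adjusted p = 0.609) in cisplatin-resistant, 0.20 (-0.09 to 0.49, adjusted p = 0.405) in paclitaxel-resistant and -0.03 (-0.33 to 0.26, adjusted p = 0.923) in dual-resistant cells. The start peak was called with the 5 Mb regional median subtracted in paclitaxel-resistant against control cells (0.44), and it was lower in dual-resistant than in paclitaxel-resistant cells under 5 settings, at -0.61 to -0.45.

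The upstream flanking peak (chr16:56606831-56607831, MT2A peak 1, centred at -1.25 kb from the start and outside the gene) had 19.5 and 15.6 CPM in cisplatin-resistant, 2.67 and 2.02 CPM in paclitaxel-resistant, 2.97 and 4.08 CPM in dual-resistant and 2.60 and 2.19 CPM in control libraries. Both cisplatin-resistant libraries stood far above the other 6. The mean was 17.5 ± 2.77 CPM in cisplatin-resistant cells and 2.39 ± 0.291 CPM in control cells (SD, n = 2 each), a ratio of 7.31 and a log2 difference of 2.63 (SE 0.29, limma adjusted p = 1.50e-12). The same peak differed from control by -0.03 in the paclitaxel-resistant line and by 0.47 in the dual-resistant line, and neither was called (adjusted p = 0.965 and 0.337). The downstream flanking peak (chr16:56609829-56610829, MT2A peak 3, beyond the gene's end) had 14.4 and 12.0 CPM in cisplatin-resistant, 3.89 and 1.69 CPM in paclitaxel-resistant, 2.97 and 3.33 CPM in dual-resistant and 3.77 and 2.96 CPM in control libraries. Again the cisplatin-resistant libraries lay above all others, while those of the other 3 groups overlapped. Its log2 difference in cisplatin-resistant against control cells was 1.83 (SE 0.30, adjusted p = 3.85e-07), a 3.93-fold higher mean.

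The summed flanking peaks were 1.48 and 1.32 times the start peak in cisplatin-resistant libraries, 0.300 and 0.149 times in paclitaxel-resistant, 0.318 and 0.356 times in dual-resistant and 0.331 and 0.242 times in control libraries. This ratio is taken within a library and so does not depend on a scaling by 1 factor per library. Quantile and loess scaling depend on the level of a peak and could change it, which was not tested. An exact two-sided permutation test of it gave p = 0.333 for cisplatin-resistant against control cells, the smallest value that 2 libraries against 2 allow, and p = 0.667 for each other line against control.

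**Figure D1:**
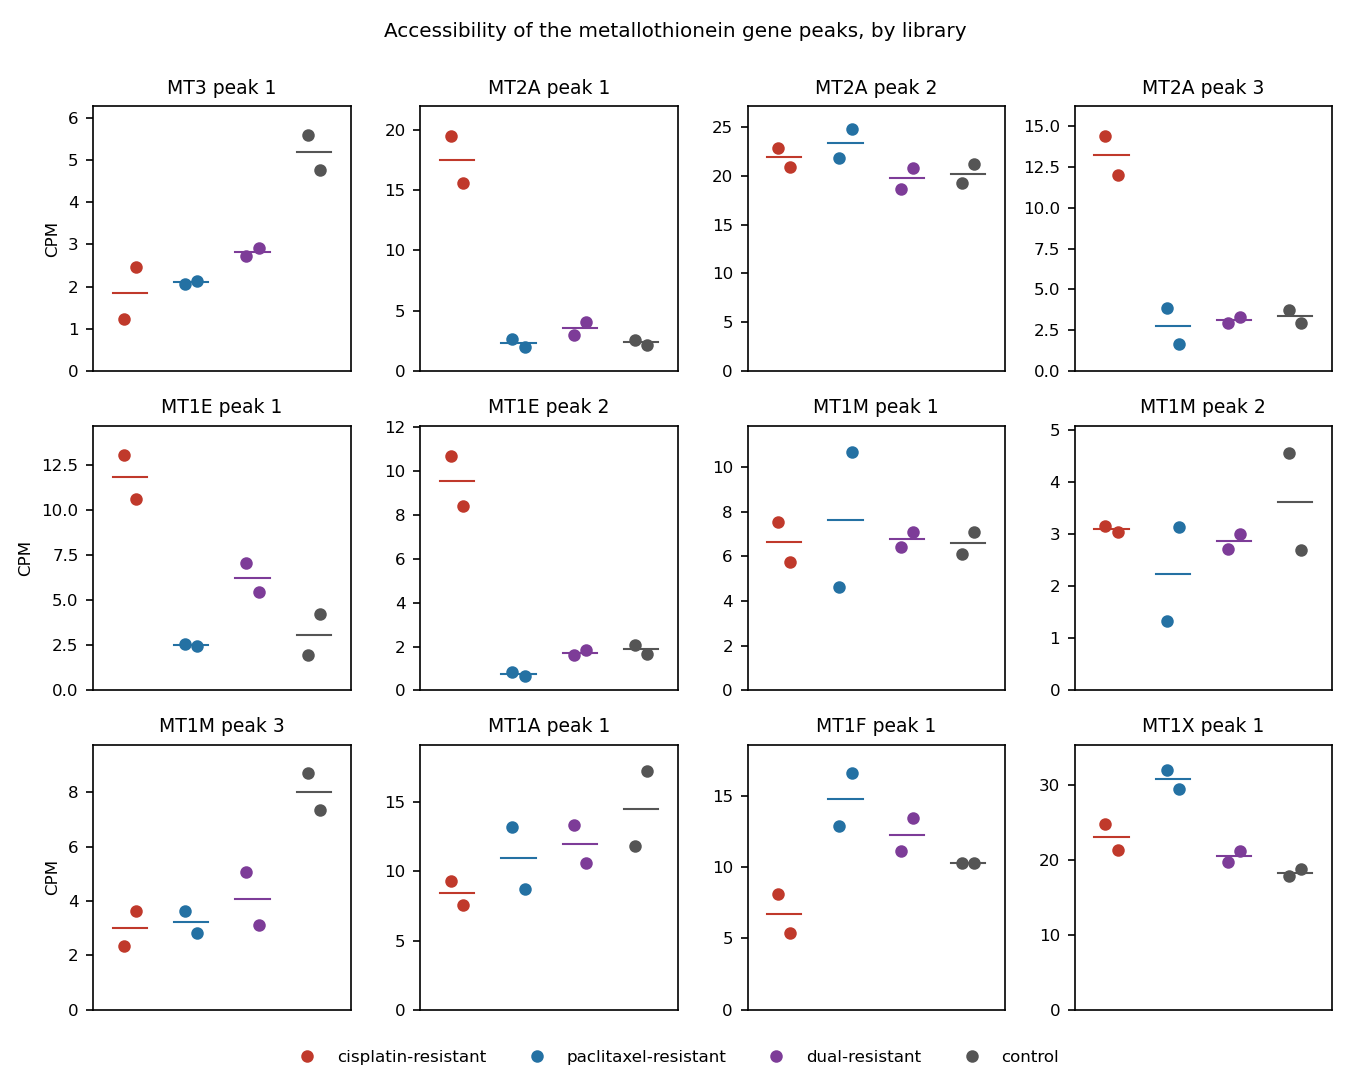
CPM of the 12 metallothionein peaks in each of the 8 libraries, by group, with bars at the group means. The cisplatin-resistant libraries stand apart at MT2A peaks 1 and 3 and at both MT1E peaks, the start peak of MT2A is level in all groups, and MT1X is highest in the paclitaxel-resistant libraries.

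MT1E, one of the MT1 group of metallothioneins, was the other gene with peaks more open in cisplatin-resistant cells. Its peak at the low-coordinate end of the gene (chr16:56625420-56626420, MT1E peak 1) had 13.1 and 10.6 CPM in cisplatin-resistant, 2.55 and 2.47 CPM in paclitaxel-resistant, 7.05 and 5.48 CPM in dual-resistant and 1.95 and 4.25 CPM in control libraries. The levels fell into an order without overlap between cisplatin-resistant, dual-resistant and control libraries, and the paclitaxel-resistant libraries lay among the control ones. Against control the log2 difference was 1.85 (SE 0.29, adjusted p = 9.94e-08) in cisplatin-resistant and 0.98 (SE 0.29, adjusted p = 0.0113) in dual-resistant cells, with means 3.82 and 2.02 times the control mean. The call in dual-resistant cells was lost without dual-resistant library 1 (0.81), without control library 1 (0.50) and in DESeq2 (0.93). MT1E peak 2 (chr16:56626863-56627863), at the gene's other end, had 10.7 and 8.42 CPM in cisplatin-resistant, 0.850 and 0.674 CPM in paclitaxel-resistant, 1.61 and 1.83 CPM in dual-resistant and 2.08 and 1.67 CPM in control libraries. Only the cisplatin-resistant libraries were high here, at 5.09 times the control mean (log2 difference 2.08, SE 0.38, adjusted p = 4.75e-06). In dual-resistant cells this peak differed from control by -0.10 (adjusted p = 0.914), so the MT1E peaks of that line did not both pass the test.

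Of the 12 peaks, 4 were higher and 4 lower in cisplatin-resistant than in control cells, where 33.2% of all tested peaks were called (18.3% higher and 14.9% lower, or 15.8% and 7.18% in DESeq2). The median log2 difference of the 12 was 0.06, against -0.09 over all tested peaks. The 4 higher peaks, those of MT2A and MT1E above, were called in the same direction under all 21 alternative settings. Each of these 4 carries the name of a peak of a cisplatin-resistant library in the authors' table, as do 5 of the 12 metallothionein peaks and 34.3% of all peaks. Of the other metallothionein peaks 6 carry the name of a paclitaxel-resistant library (23.0% of all peaks), 1 that of a dual-resistant library (39.5%) and 0 that of a control library (3.18%). The part of this in the differences was not tested.

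The 4 lower peaks lay at MT3, MT1M, MT1A and MT1F. The MT1M peak beyond the high-coordinate end of the gene (chr16:56634680-56635680, MT1M peak 3) had 2.36 and 3.62 CPM in cisplatin-resistant, 3.64 and 2.81 CPM in paclitaxel-resistant, 5.07 and 3.12 CPM in dual-resistant and 8.71 and 7.34 CPM in control libraries. Both control libraries lay above all 6 resistant ones. It fell in all 3 lines, with log2 differences of -1.31 in cisplatin-resistant (SE 0.30, adjusted p = 0.000312), -1.20 in paclitaxel-resistant (adjusted p = 0.00192) and -0.92 in dual-resistant cells (adjusted p = 0.0283). These 3 comparisons share the control libraries. The call in cisplatin-resistant cells was kept under all 21 settings. Without control library 1 it was lost in paclitaxel-resistant cells (-1.08, adjusted p = 0.0551). In dual-resistant cells it was lost without dual-resistant library 2 (-0.61), control library 1 (-0.80) or control library 2 (-1.04), with a pseudocount of 0.1 (-0.99) and in DESeq2 (-1.06).

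The single MT3 peak (chr16:56589132-56590132), over the low-coordinate end of the gene, had 1.24 and 2.46 CPM in cisplatin-resistant, 2.06 and 2.14 CPM in paclitaxel-resistant, 2.72 and 2.90 CPM in dual-resistant and 5.59 and 4.76 CPM in control libraries. The control libraries were highest and did not overlap with any resistant line. The log2 difference from control was -1.32 (adjusted p = 0.00225) in cisplatin-resistant and -1.12 (adjusted p = 0.0194) in paclitaxel-resistant cells, and -0.77 in dual-resistant cells, which did not pass (adjusted p = 0.157). The first call was lost without cisplatin-resistant library 1 (-0.94, adjusted p = 0.0928). The second was lost without paclitaxel-resistant library 1 (-1.10) or 2 (-1.14), or without control library 1 (-1.02) or 2 (-1.23), and was kept under 12 of the 21 settings.

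The MT1A peak (chr16:56637899-56638899) lies over the low-coordinate end of MT1A and also over an end of the pseudogene MT1JP. It had 9.34 and 7.60 CPM in cisplatin-resistant, 13.2 and 8.77 CPM in paclitaxel-resistant, 13.4 and 10.6 CPM in dual-resistant and 11.8 and 17.2 CPM in control libraries. The cisplatin-resistant libraries lay below the control ones, with a log2 difference of -0.73 (adjusted p = 0.0028), while the other 2 lines overlapped with control and were not called. This call was lost without cisplatin-resistant library 2 (-0.59), without control library 2 (-0.47), with loess scaling (-0.49) and in DESeq2 (-0.66).

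The MT1F peak (chr16:56657165-56658165), over the low-coordinate end of the gene, had 8.10 and 5.38 CPM in cisplatin-resistant, 12.9 and 16.6 CPM in paclitaxel-resistant, 11.1 and 13.4 CPM in dual-resistant and 10.3 CPM in both control libraries. The cisplatin-resistant libraries lay below all others and the paclitaxel-resistant and dual-resistant ones above control. The log2 difference of -0.60 in cisplatin-resistant against control cells had an adjusted p of 0.0160. It was no longer called without cisplatin-resistant library 2 (-0.33), control library 1 (-0.60) or control library 2 (-0.60), nor with loess (-0.35) or median-ratio scaling (-0.49), nor with the chromosome median subtracted (-0.40), nor in edgeR (-0.53) or DESeq2 (-0.49). The 4 higher and 4 lower peaks of cisplatin-resistant cells became 5 and 2 with loess scaling or in DESeq2, 5 and 3 with median-ratio scaling, with the chromosome median subtracted or in edgeR, and 5 and 4 with quantile scaling.

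In paclitaxel-resistant cells 1 metallothionein peak rose and 2 fell against control, where 16.4% of all tested peaks were called (7.26% higher and 9.17% lower, or 8.70% and 6.28% with loess and 10.3% and 6.47% with median-ratio scaling). Their median difference was -0.25, against -0.14 over all tested peaks. The peak that rose covers the low-coordinate end of MT1X with its promoter (chr16:56681758-56682758) and had the highest mean level of the 12. It had 24.8 and 21.4 CPM in cisplatin-resistant, 32.1 and 29.6 CPM in paclitaxel-resistant, 19.8 and 21.3 CPM in dual-resistant and 17.8 and 18.8 CPM in control libraries. The paclitaxel-resistant libraries lay above all others, and the control libraries below all others. The mean in paclitaxel-resistant cells was 1.68 times that in control cells (log2 difference 0.73, SE 0.14, adjusted p = 3.02e-05), and the call held under all 21 settings. In cisplatin-resistant cells the MT1X difference was 0.32 (95% interval 0.04 to 0.61), which did not pass (adjusted p = 0.0723) but was called under 6 settings at 0.41 to 0.53, and in dual-resistant cells it was 0.16 (adjusted p = 0.531). The 2 peaks that fell were the MT3 peak and MT1M peak 3. MT1F, at 0.49, did not pass (adjusted p = 0.0918) but was called under 5 settings at 0.57 to 0.73. The split of 1 higher and 2 lower became 1 and 1 with quantile scaling, 2 and 1 with loess scaling and 2 and 2 with median-ratio scaling.

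In dual-resistant cells 1 metallothionein peak rose (MT1E peak 1) and 1 fell (MT1M peak 3) against control, where 13.5% of all tested peaks were called (8.11% higher and 5.39% lower, or 6.76% in each direction with median-ratio scaling). Their median difference was -0.06, against 0.08 over all tested peaks. The remaining 2 MT1M peaks were called in none of the 6 comparisons. MT1M peak 1 (chr16:56631784-56632784), over the low-coordinate end of the gene, spanned 4.61 to 10.7 CPM over the 8 libraries, with both values in paclitaxel-resistant cells. MT1M peak 2 (chr16:56633116-56634116), over its other end, spanned 1.34 to 4.55 CPM.

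**Figure D2:**
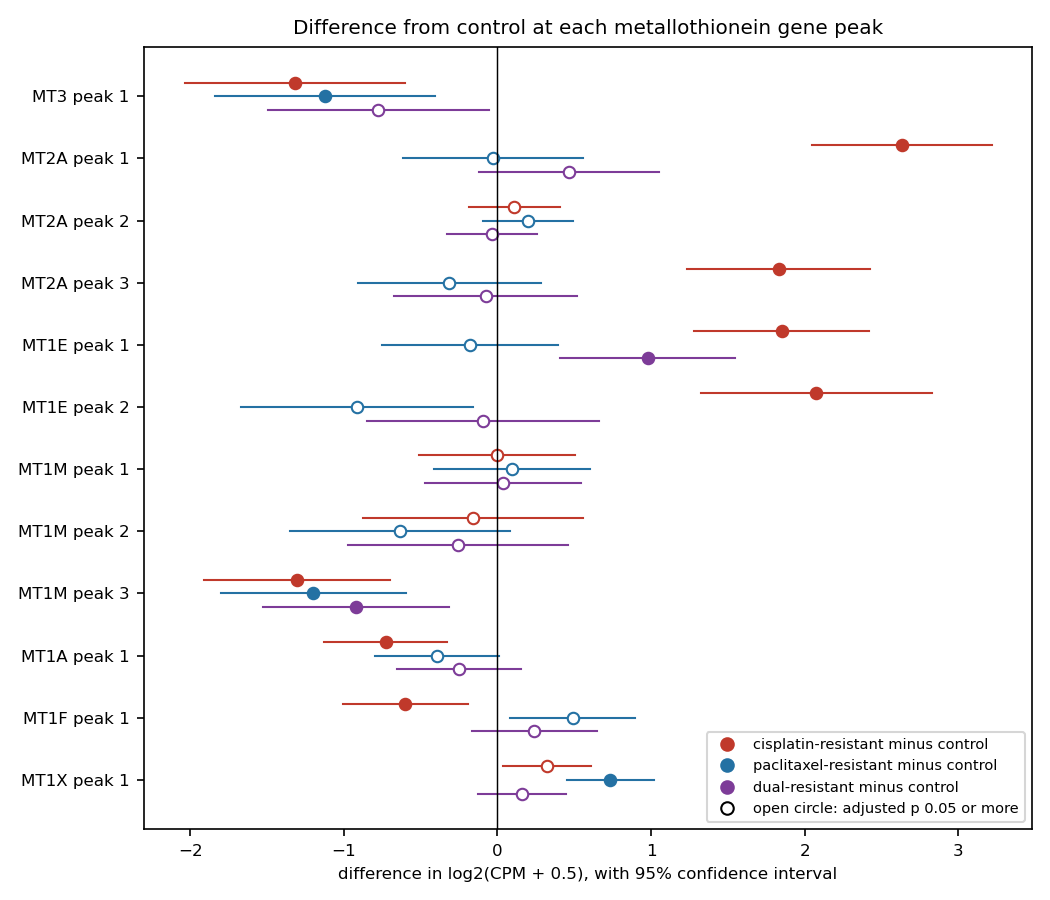
Log2 difference from control of the 12 metallothionein peaks in each resistant line, with 95% intervals and called peaks marked. In cisplatin-resistant cells MT2A peaks 1 and 3 and both MT1E peaks lie between 1.83 and 2.63, and MT1M peak 3 lies below 0 in all 3 lines.

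Set directly against the cisplatin-resistant line, 1 metallothionein peak was higher and 4 were lower in dual-resistant cells, where 41.8% of all tested peaks were called (21.9% higher and 19.9% lower, or 15.8% and 23.5% with median-ratio scaling). The lower peaks were MT2A peak 1 (-2.17, adjusted p = 1.36e-09), MT2A peak 3 (-1.91, adjusted p = 1.01e-07), MT1E peak 2 (-2.17, adjusted p = 1.34e-06) and MT1E peak 1 (-0.87, adjusted p = 0.0102). The dual-resistant line, labelled as resistant to cisplatin too, thus had lower accessibility at each of the 4 peaks than the line resistant to cisplatin alone. This comparison and the next reuse the cisplatin-resistant libraries in which these same 4 peaks were called higher than control. Both are therefore not independent of that result. The call at MT1E peak 1 was lost without cisplatin-resistant library 1 (-0.73) or dual-resistant library 2 (-0.70). MT1F was the higher peak (0.84, adjusted p = 0.000452), a call lost without cisplatin-resistant library 2 (0.57). The split of 1 and 4 became 2 and 4 with quantile scaling, where MT1A was called too (0.49), and 1 and 5 with median-ratio scaling or with the chromosome median subtracted, where MT1X was called too (-0.35 and -0.36).

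Between paclitaxel-resistant and cisplatin-resistant cells, 2 metallothionein peaks were higher and 4 lower, where 38.7% of all tested peaks were called (15.3% higher and 23.4% lower, or 20.6% and 19.5% with quantile scaling). The lower ones were the same 2 MT2A and 2 MT1E peaks, with differences of -2.66 at MT2A peak 1 (adjusted p = 4.70e-13), -2.14 at MT2A peak 3 (adjusted p = 2.78e-09), -2.03 at MT1E peak 1 (adjusted p = 4.04e-09) and -2.99 at MT1E peak 2 (adjusted p = 1.11e-10). MT1F (1.09, adjusted p = 5.38e-06) and MT1X (0.41, adjusted p = 0.0159) were higher. The MT1X call was lost without cisplatin-resistant library 2 (0.31) or paclitaxel-resistant library 1 (0.35), and with quantile or loess scaling (0.19 in each), which left 1 peak higher. With the 5 Mb regional median subtracted 3 were higher, MT1A among them (0.58).

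Between dual-resistant and paclitaxel-resistant cells 1 peak was higher and 1 lower, where 22.4% of all tested peaks were called (14.9% higher and 7.44% lower). This split turned round with the scaling, to 7.87% higher and 8.61% lower with loess and 8.99% and 12.3% with median-ratio scaling, and it was 7.78% and 7.64% with quantile scaling. MT1E peak 1 was higher by 1.16 (adjusted p = 0.00129), a call lost without dual-resistant library 1 (0.99). MT1X was lower by a log2 difference of -0.57 (adjusted p = 0.0014). With median-ratio scaling, 1 peak was higher and 2 lower.

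The cluster between MT3 and MT1X held 22 peaks, of which 10 lay more than 1 kb from the 9 genes. Of these 10, 5 were higher and 2 lower in cisplatin-resistant than in control cells, where 18.3% and 14.9% of all tested peaks were. The 5 include 2 peaks, described below, that passed the filter only through the cisplatin-resistant libraries. The count of 5 can therefore not be set against the 18.3%. In the paclitaxel-resistant line 0 were higher and 1 lower (7.26% and 9.17% of all tested peaks), and in the dual-resistant line 0 in either direction (8.11% and 5.39%). Next to MT2A, a peak centred at -2.29 kb from its start (chr16:56605789-56606789) had 9.23 and 10.1 CPM in cisplatin-resistant, 0.486 and 0.674 CPM in paclitaxel-resistant, 0.866 and 0.860 CPM in dual-resistant and 0 and 0.772 CPM in control libraries. A peak centred at 6.04 kb (chr16:56614122-56615122) had 6.98 and 7.13 CPM in cisplatin-resistant, 0.486 and 0.562 CPM in paclitaxel-resistant, 0.495 and 0.322 CPM in dual-resistant and 1.30 and 0.772 CPM in control libraries. At each, the cisplatin-resistant libraries were high and the others near the level of a few reads, with log2 differences from control of 3.67 and 2.32. Both peaks passed the filter of 1 CPM in 2 libraries only through the cisplatin-resistant libraries, so they had to differ once tested, and their calls are given as a description with no p. The peak at an end of the pseudogene MT1DP (chr16:56642980-56643980) had 7.77 and 5.26 CPM in cisplatin-resistant, 0.850 and 0.674 CPM in paclitaxel-resistant, 3.34 and 3.65 CPM in dual-resistant and 2.08 and 1.03 CPM in control libraries, and it was higher in cisplatin-resistant than in control cells by 1.80 (adjusted p = 7.94e-05). The other 2 that rose, at 3.05 and 9.34 kb from the MT2A start, differed by 1.28 and 0.91. The 9.34 kb peak lies at an end of the pseudogene MT1L. The call at 3.05 kb was lost without cisplatin-resistant library 1 (1.26) or 2 (1.296), or without control library 1 (0.84), and the call at 9.34 kb without cisplatin-resistant library 1 (0.63), without control library 2 (0.63), with a pseudocount of 0.1 (1.02), with quantile scaling (0.75) and in DESeq2 (1.16). The 2 lower peaks, at 27.7 and 65.7 kb, differed by -0.94 (adjusted p = 0.0107) and -1.03 (adjusted p = 0.00619), and both calls were lost without control library 2 (-0.87 and -0.76) and in DESeq2 (-0.92 and -1.03). The call at 27.7 kb was also lost without cisplatin-resistant library 1 (-0.74), with loess scaling (-0.72) and with the chromosome median subtracted (-0.73), and the call at 65.7 kb without cisplatin-resistant library 2 (-0.66).

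Summed over the 10 peaks outside the genes, the level was 54.7 and 52.4 CPM in cisplatin-resistant, 18.7 and 19.2 CPM in paclitaxel-resistant, 35.4 and 34.5 CPM in dual-resistant and 33.3 and 33.9 CPM in control libraries. Summed over the 12 metallothionein peaks, it was 137 and 117 CPM, 102 and 105 CPM, and 94.5 and 97.0 CPM in the 3 resistant lines in that order, against 94.5 and 100.5 CPM in control libraries. The cisplatin-resistant libraries were the highest in both sums. The sum outside the genes includes the peaks that passed the filter only through the cisplatin-resistant libraries. The sum itself was taken without that filter. Those peaks carry the names of peaks of cisplatin-resistant libraries in the authors' table, and the part of this in the sum was not tested. DNA copy number was not measured. Over the 378 tested peaks of the 5 Mb around the cluster, the median difference from control was -0.02 for the cisplatin-resistant line. It was -0.24 for the paclitaxel-resistant line and 0.12 for the dual-resistant line. Subtracting it left the 4 higher calls of cisplatin-resistant cells in place, but -0.02 is too small to remove differences of 1.83 to 2.63. A median over 5 Mb also does not measure the cluster alone, and a part of copy number in these differences was not tested.

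**Figure D3:**
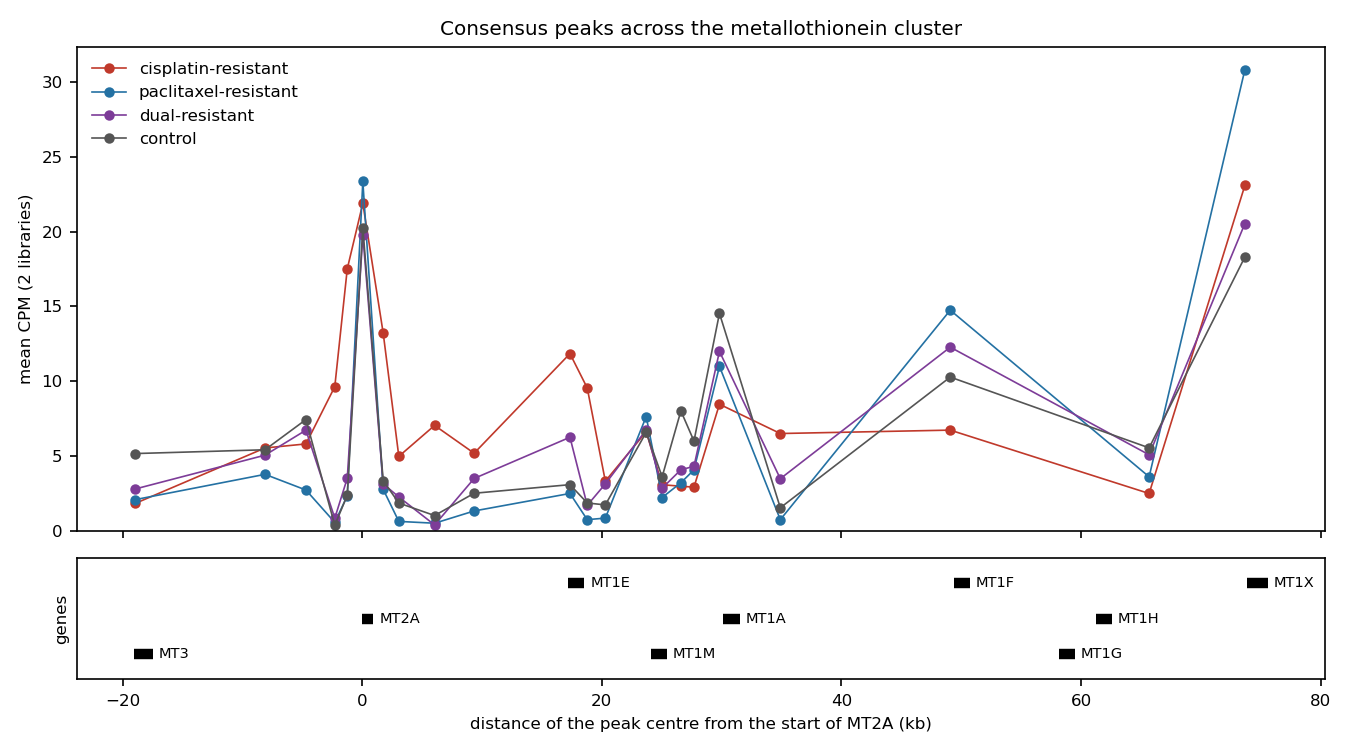
Mean CPM of the 22 peaks of the metallothionein cluster in each group against the distance of the peak centre from the MT2A start in kb, with lines joining the peaks in order and the 9 genes marked as bars. The cisplatin-resistant means exceed the others on both sides of the MT2A start and at MT1E, and all 4 groups meet at the MT2A start peak.

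In and around the cluster, 13 of 17 neighbouring genes and MT pseudogenes had a peak at a gene end, on 12 distinct peaks. In cisplatin-resistant cells 2 were higher and 4 lower against control, in paclitaxel-resistant cells 0 and 2, and in dual-resistant cells 0 and 1. Among protein-coding gene ends, 39.7%, 22.4% and 19.7% were called in these 3 comparisons. By direction, 11.1% were higher and 28.6% lower, 12.7% and 9.68%, and 4.86% and 14.8%, in the same order. These shares moved with the scaling, as given below. Over all settings, 1 to 2 of the neighbours were higher and 1 to 4 lower in cisplatin-resistant cells. The ranges were 0 to 3 and 1 to 2 in paclitaxel-resistant and 0 to 1 and 1 to 2 in dual-resistant cells. The 2 higher in cisplatin-resistant cells were the ends of MT1L and MT1DP, and the lower ones include the end of MT1JP. The peaks of these pseudogenes lie inside the cluster and were already counted above. NLRC5, an activator of MHC class I genes, had 13.4 and 9.003 CPM in cisplatin-resistant, 10.6 and 8.77 CPM in paclitaxel-resistant, 9.77 and 9.78 CPM in dual-resistant and 20.9 and 23.8 CPM in control libraries. Its control libraries lay above all others, and it fell, with log2 differences of -0.99, -1.17 and -1.15 in the 3 lines in that order (adjusted p = 1.29e-05, 4.54e-07 and 1.09e-06). CETP, the cholesteryl ester transfer protein, was lower in paclitaxel-resistant cells by a log2 difference of -1.001 (adjusted p = 0.0462), a call lost under 17 of the 21 settings, among them the loss of either paclitaxel-resistant library (-0.90 and -1.10) or either control library (-0.97 and -1.03).

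The wider metal-handling list held MTF1, the zinc exporters (SLC30) and importers (SLC39) and 10 copper genes, of which 34 of 35 had a peak at a gene end. In cisplatin-resistant cells 5 were higher and 9 lower against control, where 11.1% of gene ends were higher and 28.6% lower. In paclitaxel-resistant cells 2 were higher and 1 lower (12.7% and 9.68% of gene ends). In dual-resistant cells 4 were higher, among them SLC30A8, which passed the filter only through that line, and 6 lower (4.86% and 14.8%). These counts depended on the scaling: with loess scaling the cisplatin-resistant line had 7 higher and 8 lower, the paclitaxel-resistant line 0 higher and 2 lower, and the dual-resistant line 3 higher and 2 lower. With median-ratio scaling the lines had 6, 5 and 2 higher and 7, 1 and 10 lower, in the same order. The shares of gene ends higher and lower moved as well, to 16.7% and 13.5%, 10.5% and 9.37%, and 6.19% and 7.90% in the 3 lines with loess scaling, and to 14.7% and 17.5%, 26.3% and 5.81%, and 3.87% and 23.2% with median-ratio scaling. Over all settings, single libraries left out included, the cisplatin-resistant line had 3 to 7 higher and 6 to 10 lower, the paclitaxel-resistant line 0 to 7 higher and 0 to 2 lower, and the dual-resistant line 2 to 4 higher and 2 to 13 lower. The list's median difference was -0.14, 0.01 and -0.15 in these lines, against -0.19, 0.01 and -0.13 over all protein-coding gene ends. MTF1 itself, whose peak (chr1:37859364-37860364) is shared with an end of INPP5B, had 53.1 and 47.2 CPM in cisplatin-resistant, 60.9 and 58.6 CPM in paclitaxel-resistant, 44.3 and 53.3 CPM in dual-resistant and 61.1 and 53.0 CPM in control libraries. The groups overlapped with control, and the differences of -0.18, 0.07 and -0.23 did not pass (adjusted p = 0.168, 0.720 and 0.140). It was called under 1 setting in paclitaxel-resistant cells, with the chromosome median subtracted (0.29), and under 4 in dual-resistant cells, at -0.36 to -0.30.

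SLC39A4, a zinc importer known from the intestine, had 62.8 and 60.5 CPM in cisplatin-resistant, 26.0 and 32.6 CPM in paclitaxel-resistant, 38.2 and 44.5 CPM in dual-resistant and 26.4 and 30.5 CPM in control libraries. It rose by 1.11 in cisplatin-resistant (adjusted p = 2.30e-13) and 0.53 in dual-resistant cells (adjusted p = 0.000405). SLC39A10, another importer, had 2.93 and 4.09 CPM in cisplatin-resistant and 0.520 and 1.03 CPM in control libraries (1.67, adjusted p = 0.00249), a call lost without cisplatin-resistant library 2 (1.46) or control library 1 (1.37). SLC39A2, also an importer, had 5.18 and 2.34 CPM in cisplatin-resistant, 4.08 and 3.12 CPM in dual-resistant and 1.30 and 1.42 CPM in control libraries, and it rose by 1.11 in cisplatin-resistant (adjusted p = 0.0218) and 1.13 in dual-resistant cells (adjusted p = 0.0413). The first SLC39A2 call was lost without cisplatin-resistant library 1 (0.61), control library 1 (1.07) or control library 2 (1.16) and with quantile scaling (0.94). The second was lost under 14 of the 21 settings, among them the loss of dual-resistant library 1 (0.96) or 2 (1.303) and of control library 1 (1.09) or 2 (1.18). SLC30A10, a manganese exporter of the zinc exporter family, had 0.788 and 2.10 CPM in cisplatin-resistant and 4.16 and 4.12 CPM in control libraries (-1.34, adjusted p = 0.00222), a call lost without cisplatin-resistant library 1 (-0.83) and with the median of its 5 Mb region subtracted (-0.39). SLC30A8, a zinc transporter of insulin granules, had 6.31 and 5.05 CPM in dual-resistant and 1.43 and 0.515 CPM in control libraries (2.13). Its peak passed the filter only through the dual-resistant libraries, so this call is a description with no p. In cisplatin-resistant libraries SLC30A8 had 0.225 and 0.234 CPM, a difference of -0.94 from control that did not pass (adjusted p = 0.115) but was called with loess scaling (-1.54), the 5 Mb regional median subtracted (-1.92) or the chromosome median subtracted (-1.27). Of the 10 genes of the exporter family SLC30, 2 were higher and 3 lower in cisplatin-resistant cells, with 1 to 2 higher and 2 to 4 lower under the alternatives. Of the 13 genes of the importer family SLC39 with a peak, 3 were higher and 4 lower, with 1 to 4 higher and 2 to 4 lower under the alternatives. Over all protein-coding gene ends, 11.1% were higher and 28.6% lower in cisplatin-resistant cells, shares that moved with the scaling as given above.

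**Figure D4:**
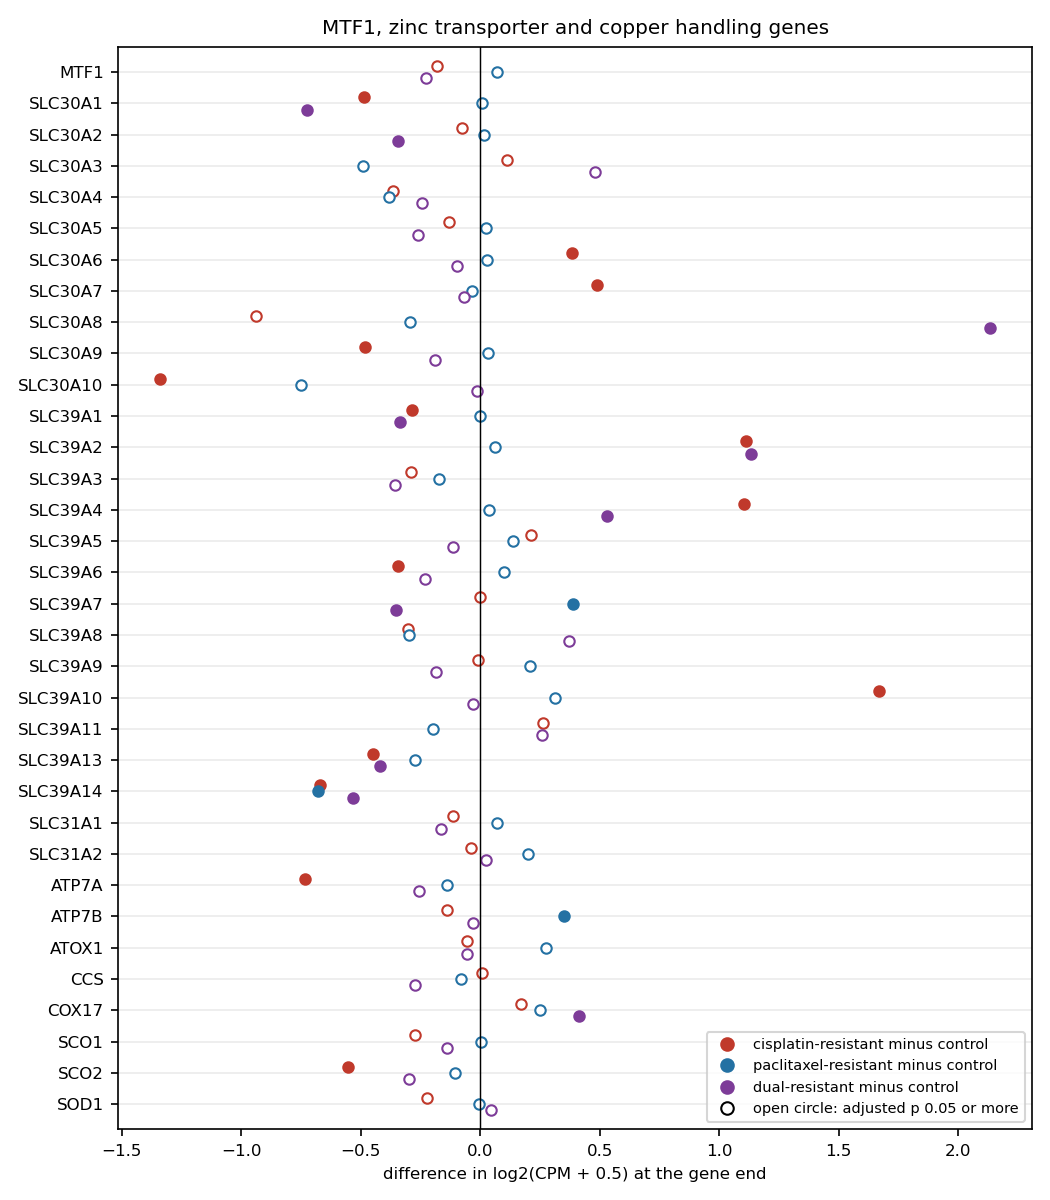
Log2 difference from control of the metal-handling gene-end peaks in each resistant line, with called genes marked. Points lie on both sides of 0 in each line, with SLC39A10 at 1.67 in cisplatin-resistant and SLC30A8 at 2.13 in dual-resistant cells.

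Gene-end peaks with profiles like those of 2 metallothionein peaks were ranked by the root mean square difference of centred log2 values over the 8 libraries. For MT1X peak 1, the most open of the 12, they were SPRY4 (0.0584), H2BC4 with H2AC6 (0.0686), SSBP1 (0.0768), ANXA11 (0.0800) and CCDC126 (0.0830), against 0.281 for a flat profile. For MT1E peak 2, whose group means had the widest range, they were CTSZ (0.124), PDCD1LG2 (0.194), CATSPER1 (0.219), GAS6 (0.232) and PAPPA (0.238), against 1.11 for a flat profile. The 5 genes nearest to MT1E peak 2 were ranked by likeness to it in these same 8 libraries. That they were high in cisplatin-resistant cells therefore follows from the ranking. CTSZ, for example, had means of 8.08 CPM in cisplatin-resistant, 0.589 CPM in paclitaxel-resistant, 1.38 CPM in dual-resistant and 1.23 CPM in control cells.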

How the data were processed

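The deposited matrix holds CPM values that the authors computed for 159451 consensus peaks of 1001 bp in 8 libraries, with coordinates on hg38. The submitters' processing notes name Bowtie2, Picard and MACS2. Versions, settings, any Tn5 shift of reads and the merging of peaks were not given in the sources used here. Scaling to reads in peaks hides a change shared by all peaks. The values were whole multiples of what 1 read is worth within 0.01 read for 100% of entries.

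The 158698 peaks that reached 1 CPM in 2 or more libraries entered the test with limma 3.58.1 (R 4.3.3) on log2(CPM + 0.5), with a variance trend, group as the only term, 4 residual and 98.5 prior degrees of freedom, and Benjamini-Hochberg adjustment over all tested peaks. Gene spans and promoters came from RefSeq (GRCh38.p14). A gene-end peak is the strongest tested peak (by mean CPM) within 1 kb of a gene's start or end. Floors and intervals cover counting error or library spread only, and a count of 0 allows 3 reads. All members were described. From other lists the genes named were those called with a log2 difference of 1 or more in size, plus MTF1. NLRC5 met this in 2 lines, and its value in the cisplatin-resistant line stands beside them. The members and lists were chosen with earlier results of these data known. The script was tested on simulated data. The 21 alternatives included edgeR 4.0.16 and DESeq2 1.42.0 on the recovered reads.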

Additional observations from a re-analysis of the deposited data

How the results depend on the processing

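Of the differences of single metallothionein peaks under the alternatives, 1443 stayed on their side of the threshold, 39 lost and 30 gained a call. The sign changed in 84 of the 1443, to values of -0.47 to 0.50, and 0 of these 84 were called as deposited or under the alternative. Counts of called metallothionein peaks that moved by more than 1.5 times were the following, smaller moves stand beside the results, and the cause was not tested. In cisplatin-resistant against control cells the 4 lower peaks became 2 with loess scaling and 2 in DESeq2. In paclitaxel-resistant against control cells the 1 higher peak became 2 with loess scaling, 2 with median-ratio scaling, 3 with the 5 Mb regional median subtracted, 2 with the chromosome median subtracted and 2 in edgeR, and the 2 lower peaks became 1 with quantile or loess scaling, with either median subtracted and in DESeq2. In dual-resistant against control cells the 1 higher peak became 0 in DESeq2, and the 1 lower peak became 0 in DESeq2 and with a pseudocount of 0.1. In dual-resistant against cisplatin-resistant cells the 1 higher peak became 2 with a pseudocount of 2, with quantile scaling, in a fit of only these 2 groups and with the replicate block. In dual-resistant against paclitaxel-resistant cells the 1 lower peak became 2 with median-ratio scaling, with the chromosome median subtracted, in edgeR and in DESeq2, and 3 with the 5 Mb regional median subtracted. In paclitaxel-resistant against cisplatin-resistant cells the 2 higher peaks became 1 with quantile and 1 with loess scaling. With spans extended by 5 kb the 12 peaks became 20, and with no extension 9. The 3 peaks outside the unextended spans are MT2A peaks 1 and 3 and MT1M peak 3, so that the 4 higher and 4 lower peaks of cisplatin-resistant against control cells became 2 and 3. Against cisplatin-resistant cells, the 4 lower peaks became 2 both in dual-resistant and in paclitaxel-resistant cells. Against control, the 2 lower peaks of paclitaxel-resistant cells became 1 and the 1 lower peak of dual-resistant cells became 0.

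Leaving out 1 library at a time gave 4 higher and 2 to 4 lower peaks in cisplatin-resistant, 1 higher and 0 to 2 lower in paclitaxel-resistant and 0 to 1 higher and 0 to 1 lower in dual-resistant cells, each against control. It gave 0 to 2 higher and 3 to 4 lower in dual-resistant against cisplatin-resistant, 0 to 1 higher and 1 lower in dual-resistant against paclitaxel-resistant, and 1 to 3 higher and 4 lower in paclitaxel-resistant against cisplatin-resistant cells. Same-numbered libraries did not deviate together (correlations of -0.000587 to 0.00332 over the 6 pairs of groups). No effect shared by them was thus seen, which does not show whether they were processed together. The replicate block moved no count of metallothionein peaks other than the 1 given above. Against control, edgeR on the recovered reads called 48196 peaks for the cisplatin-resistant line, 25272 for the paclitaxel-resistant line and 21803 for the dual-resistant line. The share of higher peaks among all calls, 55.1%, 44.2% and 60.0% in these 3 comparisons as deposited, was 47.9% to 68.8%, 52.7% to 65.0% and 45.0% to 55.9% over the 7 alternatives that rescale the values. Median-ratio and loess scaling moved the median difference of all tested peaks in paclitaxel-resistant against control cells to -0.000826 and 0.00226, against -0.14 as deposited. Peaks of a few reads per library limit what can be seen: at 0.322 to 0.390 CPM a level cannot be told from 0.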
